A study of Mus musculus with 4 samples.

Results

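Neuroblasts are immature neurons, and 116 of the 55660 nuclei examined here met a marker rule for them and are called neuroblast nuclei here. They were chosen by measured values, and how well other genes bear out the name differed between libraries. A nucleus was counted when it held UMIs, that is individually tagged transcript molecules, of at least 3 of the 6 markers Dcx, Sox11, Igfbpl1, Dlx2, Sp9 and Cd24a, when these markers together made up at least 0.2% of its UMIs, and when it held fewer than 3 UMIs over the cell division genes Mki67, Top2a, Cenpf and Kif11. The choice was made among nuclei with 200 to 6000 genes and less than 2% mitochondrial UMIs. Dcx encodes doublecortin, a microtubule protein of migrating neurons. Sox11, Dlx2 and Sp9 encode transcription factors, Cd24a encodes a surface glycoprotein, and Igfbpl1 encodes a protein related to the binding proteins of insulin-like growth factors.

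The study sequenced nuclei of the lateral septum (LS), a forebrain region beside the lateral ventricles, from male mice that the labels give as 6 to 8 weeks old, while the methods give 8 weeks as their age at purchase. C57J mice, labelled C57BL/6JNifdc, gave 2 libraries, and nude mice, labelled BALB/c nude, and BALB/c mice gave 1 each. Every library pooled the tissue of 3 mice, and the authors describe the nude mice as T-cell deficient Foxn1 knockouts on the BALB/c background. C57J 1 was of batch 1 and the other libraries were of batch 2. The 4 libraries held 102939576 UMIs (C57J 1), 72912922 UMIs (C57J 2), 82169638 UMIs (nude) and 125998527 UMIs (BALB/c), and the median nucleus held 5851, 4435, 4885 and 8877 UMIs, so the BALB/c nuclei were the deepest. Between 29 and 63 cell barcodes were shared by any pair of libraries, at most 0.478% of the smaller one. Because a library is a pool of mice and nude and BALB/c have 1 library each, differences that involve a single library have no replicate check.

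In the adult mouse forebrain, neuroblasts arise from stem cells in the wall of the lateral ventricle, which borders the septum. They pass through dividing progenitors, migrate in chains along the rostral migratory stream and become GABAergic interneurons of the olfactory bulb. Genes of the Dlx family, Sp8 and Sp9 direct this GABAergic lineage, while polysialic acid on Ncam1 and Slit-Robo signals take part in migration.

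The rule left few nuclei, with little RNA in each. Of 4009 nuclei with at least 3 of the markers, 149 also reached 0.2% of UMIs, and 33 of these were set aside as dividing (7, 6, 3 and 17, with series of 4 values given throughout in the order C57J 1, C57J 2, nude, BALB/c). The neuroblast nuclei held a median of 1998.5 UMIs for C57J 1, 1877.5 for C57J 2, 1799 for nude and 3325 for BALB/c. Each median lay between 0.342 and 0.423 of the median of its own library. A nucleus with 3 marker UMIs reached the limit only when it was shallow, and 8 neuroblast nuclei (2, 4, 1 and 1) held exactly 3 marker UMIs. The median mitochondrial share in neuroblast nuclei was 1.35%, 0.518%, 0.648% and 0.772%, against 0.488%, 0.213%, 0.245% and 0.306% in the other nuclei of the same libraries. The share was therefore above that of the other nuclei in all 4 libraries. The lowest marker share inside the limit and the highest outside it were 0.2004% and 0.1996% for C57J 1, 0.2059% and 0.1995% for C57J 2, 0.2038% and 0.1841% for nude and 0.2022% and 0.198% for BALB/c. A further 314 nuclei had 3 markers and a marker share between 0.1% and 0.2%, of which 68, 64, 73 and 72 by library held fewer than 3 UMIs of the division genes, so the limit cut through a continuous range, as the plot of marker share against UMIs shows.

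**Figure D1:**
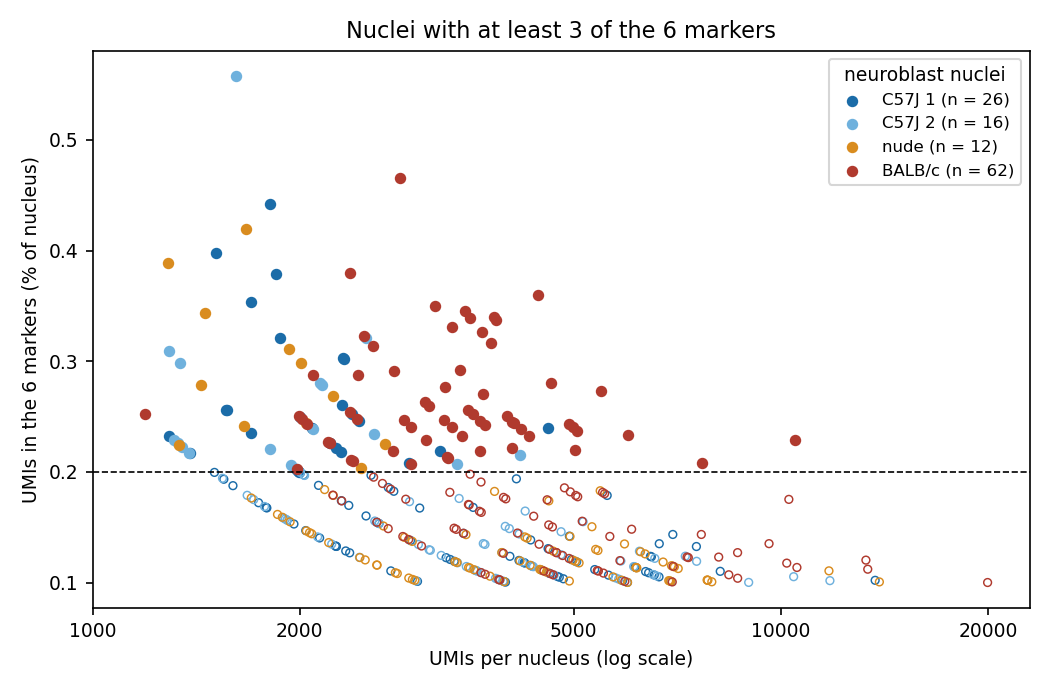
UMIs per nucleus (horizontal, log scale) and the share of UMIs in the 6 markers (vertical, %) for nuclei with at least 3 markers, at least 0.1% of UMIs in them and fewer than 3 UMIs of the division genes. Filled points are the 116 neuroblast nuclei (26, 16, 12 and 62), open points fell below the dashed limit of 0.2%, and the bands are nuclei with equal numbers of marker UMIs.

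Among the markers that chose the nuclei, Igfbpl1 had a UMI in 102 of the 116 neuroblast nuclei, Dcx in 101 and Sox11 in 99. Sp9 was found in 59, Cd24a in 33 and Dlx2 in 24. Most nuclei were thus chosen on Igfbpl1, Dcx and Sox11, and 65 of them held 3 of the markers, 35 held 4, 13 held 5 and 3 held all 6. Of the division genes, 104 nuclei held no UMI, 7 held 1 and 5 held 2. Over all neuroblast nuclei Top2a had 6 UMIs, Cenpf and Mki67 4 each and Kif11 3.

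The label was then compared with 10 neuroblast genes that the rule did not use (among them Dlx1, Dlx5, Dlx6, Dlx6os1, Sp8, Sox4, St8sia2, Prokr2 and Tubb3). With every nucleus thinned to 1000 UMIs, UMIs of at least 3 of these genes were found in 23.1% of neuroblast nuclei of C57J 1 (6 of 26), 41.7% of nude (5 of 12) and 38.7% of BALB/c (24 of 62), against 0.294%, 0.308% and 0.389% of the mature neuron nuclei of these libraries. Mature neuron nuclei are those with at least 3 of Rbfox3, Snap25, Syt1, Nefl, Slc12a5 and Grin2a. Nuclei with at least 3 markers of another type were left out, as were neuroblast and dividing nuclei. In C57J 2 the number was 0 of 16, which allows a share of up to 20.6% by the exact 95% interval, against 0.214% of mature neuron nuclei. Before thinning the shares were 73.1% (C57J 1), 12.5% (C57J 2), 41.7% (nude) and 82.3% (BALB/c). Oligodendrocyte nuclei, which had median depths of 2307, 1980.5, 1831.5 and 3774 UMIs, reached 0.979%, 0.339%, 0.410% and 0.929%. They did not lack all of these genes. Tubb3 had a UMI in 8.09%, 6.26%, 9.11% and 3.72% of them at 1000 UMIs, against 15.4%, 6.25%, 0% and 17.7% of neuroblast nuclei. The deeper mature neuron nuclei reached 17.7%, 12.2%, 13.7% and 35.5% before thinning, so that in C57J 2 the unthinned shares of both classes were alike. Nuclei just outside the limit, with 3 markers and a marker share between 0.1% and 0.2%, reached 10.3%, 3.12%, 0% and 20.8% at 1000 UMIs and 33.8%, 23.4%, 19.2% and 80.6% before thinning. The nuclei set aside as dividing reached 28.6%, 16.7%, 66.7% and 11.8% at 1000 UMIs and 57.1%, 50%, 100% and 94.1% before thinning. Among the further genes named above, Dlx6os1 was the most frequent in neuroblast nuclei at 1000 UMIs (46.2%, 37.5%, 83.3% and 82.3%). Dlx5, Dlx6 and Sp8 had a UMI in 0 neuroblast nuclei of C57J 1 and C57J 2. Prokr2 had a UMI in 1, 0, 1 and 0 neuroblast nuclei by library. The further genes thus set neuroblast nuclei apart from mature neurons and oligodendrocytes in 3 libraries, but were also found in dividing nuclei and, in BALB/c most of all, in nuclei just outside the limit. In C57J 2 the label rested mainly on the markers of the rule and on summed levels. For all neuroblast nuclei of a library together, the 22 genes of a longer list of neuroblast genes outside the rule summed, in UMIs scaled to the library total (CPM), to 6492 CPM, 4510 CPM, 8073 CPM and 10004 CPM, against 1403 CPM, 1310 CPM, 1398 CPM and 1547 CPM in mature neuron nuclei. The level in C57J 2 was the lowest of the 4 libraries but still above that of every reference class shown in the plot of summed lists, apart from the dividing nuclei.

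RNA of mature neurons was examined next. Rbfox3, which encodes the mature neuron protein NeuN, had a UMI at 1000 UMIs per nucleus in 3.85%, 6.25%, 0% and 1.61% of neuroblast nuclei, against 1.98%, 2.28%, 2.48% and 1.30% of oligodendrocyte nuclei. Mature neuron nuclei, which were chosen on this gene and 5 others, had 26%, 26.1%, 26.5% and 27.1%. Snap25, a vesicle fusion gene from the same markers, was less distinct, with a UMI in 34.6%, 62.5%, 66.7% and 53.2% of neuroblast nuclei, against 58.8%, 57.9%, 58% and 60.2% of mature neuron nuclei and 31.2%, 25.9%, 34.8% and 19% of oligodendrocyte nuclei. Its share in neuroblast nuclei was thus not below that of mature neurons in C57J 2 and nude. A part of the neuroblast nuclei nevertheless carried RNA of other types. At least 3 of the mature neuron markers were found in 32 of the 116 nuclei (5, 5, 2 and 20), and at least 3 of 6 markers of a glial, vascular or ependymal type in 12 (8 in C57J 1 and 4 in BALB/c). Doublet prediction marked 2 of the 116. Summed over neuroblast nuclei, the astrocyte markers reached 2074 CPM, 1050 CPM, 1127 CPM and 976 CPM, with Slc1a2 the most abundant. The oligodendrocyte markers reached 289 CPM, 340 CPM, 180 CPM and 165 CPM, with Mobp the most abundant, and the microglia markers 126 CPM, 402 CPM, 135 CPM and 59.5 CPM, with Selplg at 0. The summed OPC markers, led by Tnr, gave 397 CPM, 432 CPM, 180 CPM and 128 CPM. C57J 1 was the highest for the astrocyte markers and C57J 2 for those of the other types. Of the 6 vascular markers only Pdgfrb had a UMI, and that was 1 UMI in BALB/c. Of the ependymal markers Fam216b and Tmem212 were at 0, and Ccdc153, Foxj1, Dnah12 and Rsph1 had 5 UMIs together. Whether free RNA or a second nucleus contributed to these levels was not tested.

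The question put to the share of neuroblast nuclei was whether it differed between mice of different strain and immune background. The share of neuroblast nuclei was 0.175% for C57J 1 (26 of 14836, exact Clopper-Pearson 95% interval 0.115% to 0.257%) and 0.114% for C57J 2 (16 of 14074, 0.0650% to 0.185%). It was 0.0818% for nude (12 of 14670, 0.0423% to 0.143%) and 0.513% for BALB/c (62 of 12080, 0.394% to 0.657%). The BALB/c share was 3.55 times the mean of both C57J libraries, and its interval lay above those of the other libraries, while the nude interval overlapped both C57J intervals. On the log2 scale BALB/c stood 1.83 above the C57J mean and nude 0.82 below it (log2 ratio -0.82). Against C57J 2 alone, the C57J library of the same batch, the log2 ratio was 2.17 for BALB/c and -0.47 for nude. Comparing both libraries on a BALB/c background (mean 0.298% ± 0.305, SD, n = 2) with both C57J libraries (0.144% ± 0.0435, SD, n = 2), the exact two-sided permutation test gave p = 1, and the smallest p that 2 against 2 libraries allow is 0.333. The intervals cover counting error only.

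The shares changed when nuclei were set to equal depth. With every nucleus thinned to 1000 UMIs the shares were 0.162%, 0.151%, 0.0826% and 0.299%, and the BALB/c interval (0.209% to 0.413%) then overlapped those of C57J 1 (0.104% to 0.241%) and C57J 2 (0.0937% to 0.231%). With 2000 UMIs, an alternative chosen after seeing the data, they were 0.243%, 0.188%, 0.180% and 0.613% (BALB/c 0.480% to 0.770%). The BALB/c share stayed the highest at both depths. Nude and C57J 2 were close at 2000 UMIs, while at 1000 UMIs the log2 ratio of nude to C57J 2 was -0.87.

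A second count did not use the markers of the rule. Nuclei with at least 4 of the 10 further neuroblast genes at 2000 UMIs, also chosen after seeing the data, numbered 35, 22, 20 and 77 (0.258%, 0.197%, 0.163% and 0.646%, the last with an interval of 0.510% to 0.807%). The BALB/c interval lay above the others here too. The nuclei found by both counts were 6, 2, 2 and 20, that is 18.2%, 9.52%, 9.09% and 27.4% of those found by the rule and 17.1%, 9.09%, 10% and 26% of those found by the further genes. In the nuclei found by the further genes but not by the rule, the 6 markers nevertheless summed to 872 CPM, 647 CPM, 567 CPM and 1439.5 CPM, against 256 CPM, 258 CPM, 235 CPM and 210 CPM over all nuclei. Both counts therefore found different nuclei for the most part, and those of the second count also held more of the markers than all nuclei did.

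**Figure D2:**
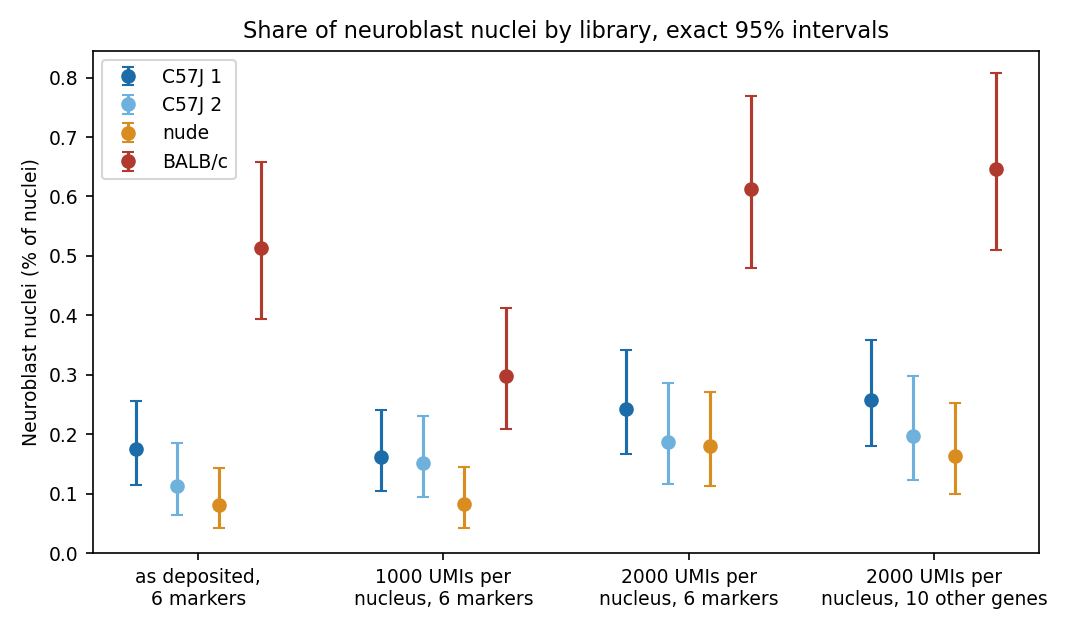
Share of neuroblast nuclei (%) in each library, with exact 95% binomial intervals as bars, by the rule on the deposited counts, at 1000 and 2000 UMIs per nucleus, and by 10 neuroblast genes outside the rule at 2000 UMIs. BALB/c is the highest in every setting (0.513%, 0.299%, 0.613% and 0.646%), and its bar clears those of all other libraries in all settings but the one at 1000 UMIs.

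Other classes of nuclei also took other shares in the BALB/c library. Among the 13581, 11191, 12251 and 11917 nuclei with at least 2000 UMIs, thinned to that depth, mature neuron nuclei made up 58.1%, 54.6%, 57.4% and 44.1%. Oligodendrocyte nuclei made up 6.21%, 5.89%, 2.90% and 11.8%, and microglia nuclei 0.994%, 0.393%, 0.400% and 2.31%. These shares count every nucleus with at least 3 markers of a type. The unthinned reference classes also left out nuclei with 3 markers of several types, and neuroblast and dividing nuclei. Their counts therefore differ from the shares in more than depth. The microglia reference class held 169, 200, 127 and 191 of the 14836, 14074, 14670 and 12080 nuclei, and the oligodendrocyte reference class held 613, 884, 488 and 1077. The median nucleus of the microglia reference class held 1754, 1358.5, 1522 and 2593 UMIs, below the limit of 2000 in all libraries but BALB/c. In the thinned nuclei BALB/c was thus the lowest in neurons and the highest in oligodendrocytes and microglia. Astrocyte nuclei made up 14.7%, 8.86%, 8.61% and 15.6% there, so that C57J 1 was close to BALB/c. Nuclei with at least 3 UMIs of the division genes made up 0.331%, 0.393%, 0.139% and 0.512%. The part of these differences between classes in the share of neuroblast nuclei was not tested, and differences in dissection or nuclei recovery cannot be told apart from differences between the mice.

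Genes were then ordered by their level in neuroblast nuclei relative to other nuclei. Levels are CPM of the UMIs summed over neuroblast nuclei (55456, 32376, 22174 and 218311 UMIs by library), set beside all other nuclei of the same library, and since the nuclei were chosen on measured values they are a description with no test. Among 2094 genes with at least 50 CPM in neuroblast nuclei of every library, the median ratio to other nuclei was 1.28. The 20 genes with the highest ratio in their lowest library included the rule markers Cd24a, Igfbpl1, Sox11, Sp9 and Dlx2. Draxin, which encodes a secreted axon guidance protein, led the order with 126 CPM, 124 CPM, 180 CPM and 234 CPM by library. Other nuclei had at most 1.95 CPM, and its lowest ratio was 74.2. The Draxin levels rested on 7, 4, 4 and 51 UMIs, and in C57J 2 the counting interval was 33.7 CPM to 316 CPM. Dlx2 and Sox4, also among the 20, had 2 UMIs each in nude. Ratios in single libraries and the order within the 20 genes are therefore imprecise. The Gm17750 and 2610307P16Rik genes are noncoding loci in this group.

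Next to Draxin stood 2610307P16Rik, with a lowest ratio of 64.8. It had levels of 848 CPM, 1297 CPM, 1127 CPM and 1686 CPM, against 13.1 CPM, 14.1 CPM, 10.8 CPM and 18.2 CPM in other nuclei. At 1000 UMIs per nucleus its UMIs were found in 50%, 68.8%, 50% and 71% of neuroblast nuclei in at most 1.45% of oligodendrocyte nuclei and in at most 2.96% of astrocyte nuclei of any library. It was thus frequent in neuroblast nuclei of C57J 2 as well, where the further neuroblast genes were sparse. It was not limited to them, since the dividing nuclei had 880.1 CPM, 940.1 CPM, 894 CPM and 905 CPM, and the few vascular nuclei had 465 CPM, 271 CPM, 980.1 CPM and 342 CPM, on 2, 6, 9 and 27 UMIs. The gene lies on chromosome 13 (28460034 to 28885620, minus strand, mm10), 63.3 kb from Sox4. Sox4 encodes a transcription factor of young neurons and was also among the 20 genes (343 CPM, 154 CPM, 90.2 CPM and 348 CPM, against 14.4 CPM to 16.7 CPM). Its levels rested on 19, 5, 2 and 76 UMIs.

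Transcription factors of the lineage and their antisense transcripts formed the next group. Dlx6os1, transcribed from the strand opposite Dlx6, had 1443 CPM, 1174 CPM, 2300.0 CPM and 3142 CPM, against 107 CPM to 150 CPM in other nuclei. Dlx1as had 451 CPM, 185 CPM, 496 CPM and 408 CPM, against 28.4 CPM to 34.7 CPM. Dlx6os1 overlaps Dlx6 and Dlx1as overlaps Dlx1, and whether reads were assigned by strand is not given in the sources used here, so the pairs are uncertain. Nfix, which encodes a nuclear factor I protein, had 541 CPM, 340 CPM, 316 CPM and 573 CPM, against 43.1 CPM to 55.0 CPM. All of these were above other nuclei in every library.

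Promoters of the 20 genes were searched for TAATTA, a homeodomain core motif that DLX proteins can bind. The motif reads the same on both strands. RefSeq promoters of build GRCm38.p6, 250 bases before to 50 bases after the start, were at hand for 15 of the genes, and 3 of these 15 (Dlx6os1, Nfix and Adarb2) held it, beside 6.12% of all 27025 genes. Counted by promoter, 4 of the 24 promoters of these genes held it, beside 5.29% of all 32851. Dlx6os1 held it in both of its promoters and Nfix in 1 of several. The promoters with a match follow here. They run 5′ to 3′ on the strand of the gene, with the motif in capitals.
Dlx6os1, chr6:6869484-6869783, minus strand: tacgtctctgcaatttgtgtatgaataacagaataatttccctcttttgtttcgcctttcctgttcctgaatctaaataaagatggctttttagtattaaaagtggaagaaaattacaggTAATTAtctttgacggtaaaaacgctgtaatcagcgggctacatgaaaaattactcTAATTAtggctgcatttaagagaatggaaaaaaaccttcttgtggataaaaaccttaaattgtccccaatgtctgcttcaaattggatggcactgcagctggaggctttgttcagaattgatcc
Dlx6os1, chr6:6861634-6861933, minus strand: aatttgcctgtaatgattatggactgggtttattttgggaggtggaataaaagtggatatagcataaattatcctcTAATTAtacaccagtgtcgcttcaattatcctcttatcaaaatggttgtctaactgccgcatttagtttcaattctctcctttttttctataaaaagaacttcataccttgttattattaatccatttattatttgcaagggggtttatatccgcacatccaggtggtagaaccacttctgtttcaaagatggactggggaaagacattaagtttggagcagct
Nfix, chr8:84780033-84780332, minus strand: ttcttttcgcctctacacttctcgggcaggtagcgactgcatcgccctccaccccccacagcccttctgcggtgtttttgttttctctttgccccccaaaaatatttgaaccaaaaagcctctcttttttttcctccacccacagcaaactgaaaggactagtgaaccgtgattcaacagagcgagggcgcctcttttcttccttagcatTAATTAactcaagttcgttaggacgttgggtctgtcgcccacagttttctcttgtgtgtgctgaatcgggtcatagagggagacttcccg
Adarb2, chr13:8202616-8202915, plus strand: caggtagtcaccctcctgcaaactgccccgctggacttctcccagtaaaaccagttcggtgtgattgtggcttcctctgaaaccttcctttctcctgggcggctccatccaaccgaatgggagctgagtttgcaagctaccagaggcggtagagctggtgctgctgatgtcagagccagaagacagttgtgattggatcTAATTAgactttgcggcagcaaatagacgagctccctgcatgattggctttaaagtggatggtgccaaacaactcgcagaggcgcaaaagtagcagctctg
The first of the Dlx6os1 promoters held 2 matches and each of the other promoters 1. A match is a stretch of letters and was not tested as a binding site.

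Other genes among the 20 encode a guidance receptor, enzymes and cytoskeletal regulators. Robo2, a receptor of Slit guidance cues, had 2038 CPM, 2162 CPM, 1488 CPM and 3779 CPM in neuroblast nuclei, against 200.3 CPM to 224 CPM in other nuclei. Adarb2, which encodes a member of the RNA-editing adenosine deaminase family without known editing activity and marks interneurons of caudal ganglionic origin, had 2290 CPM, 4015 CPM, 2841 CPM and 4411 CPM, against 306 CPM to 395 CPM. St8sia2, the enzyme that adds polysialic acid to Ncam1, had 162 CPM, 124 CPM, 225 CPM and 266 CPM, against 10.6 CPM to 13.4 CPM. Tiam2, an exchange factor for the GTPase Rac that the study took as a tanycyte marker, had 595 CPM, 340 CPM, 947 CPM and 1457 CPM, against 33.7 CPM to 40.0 CPM. Syne2, a protein linking the nucleus to the cytoskeleton, had 451 CPM, 154 CPM, 180 CPM and 376 CPM, against 14.4 CPM to 19.8 CPM. The microRNA host gene Mir9-3hg was also among the 20, with a lowest ratio of 6.23.

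**Figure D3:**
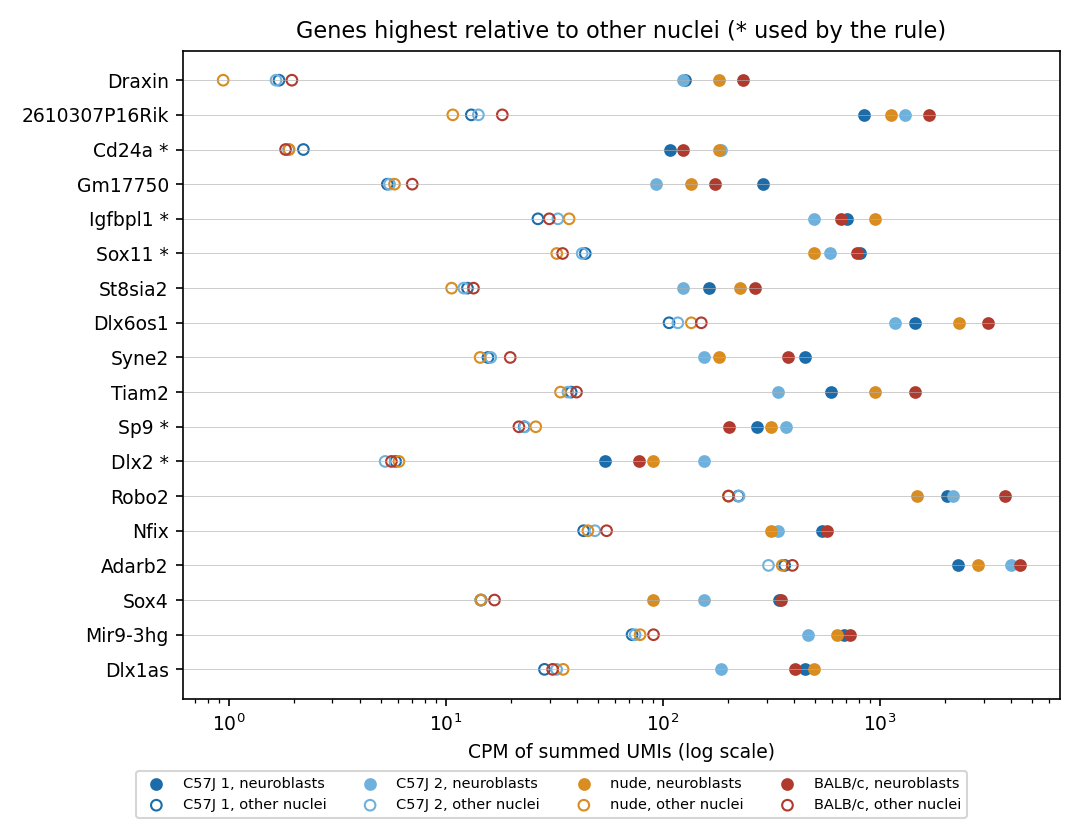
Level (CPM, log scale) of genes among the 20 with the highest ratio to other nuclei in their lowest library, in neuroblast nuclei (filled points) and in all other nuclei (open points) of each library. Filled and open points do not overlap for any gene shown, as the choice of genes requires, and the genes used by the rule carry an asterisk.

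Described by lists, most of the neuroblast genes outside the rule were above other nuclei. As a background, 9.75% of the 13909 genes with a UMI in neuroblast nuclei were above other nuclei in all 4 libraries and 13.9% were below in all 4. Among the 3663 genes with a mean of at least 50 CPM in other nuclei these shares were 16.7% and 26.5%. Of the 22 neuroblast genes outside the rule, 16 were above other nuclei in all 4 libraries, and Dlx6os1, Tiam2, Ccnd2 and Gad2 took the most UMIs. Ccnd2, a cyclin of neuronal progenitors, had 866 CPM, 902 CPM and 792 CPM in C57J 1, nude and BALB/c and 92.7 CPM in C57J 2, against 45.1 CPM on average in other nuclei. The Ccnd2 level in C57J 2 rested on 3 UMIs. Of 19 transcription factors of the ventral forebrain and of olfactory interneurons, 9 were above and 2 below in all 4. Meis2, Pbx3 and Zfhx3 were among the genes of that list with the most UMIs, and Meis2, a homeobox gene of olfactory bulb neurogenesis, had 1984 CPM, 3706 CPM, 2074 CPM and 3582 CPM. Gsx2 and Nr2f2 were at 0.

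Factors of other lineages gave few counts or were mixed. Of 7 transcription factors of glutamatergic neurons, Neurog2, Neurod1, Neurod2, Neurod6 and Emx1 had 0 UMIs among the 328317 UMIs of the neuroblast nuclei, and Tbr1 had 3 UMIs and Eomes 1. Other nuclei also held little of them, at most 0.566 CPM of any of the 5 genes at 0, so a difference was not detectable at this depth. Of 12 factors that pattern the septum and the medial ganglionic eminence, Lhx6, Lhx8 and Gbx1 were at 0 and 1, Zic1, was above other nuclei in all 4 libraries, with 343 CPM, 340 CPM, 225 CPM and 220 CPM, against 144 CPM to 167 CPM. The median ratio of the 12 to other nuclei was 0.741. The levels of Zic4 and Six3, the next in that list, rested on 26 and 10 UMIs.

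Genes of DNA replication were summed next. Of 12 DNA replication genes, led by Pcna, Mcm6, Mcm7 and Mcm2, 1 (Pcna) was above other nuclei in all 4 libraries. The list summed to 343 CPM, 124 CPM, 180 CPM and 165 CPM in neuroblast nuclei by library, and to 244 CPM, 548 CPM, 894 CPM and 690 CPM in the 7, 6, 3 and 17 nuclei set aside as dividing. Mature neuron nuclei gave 24.4 CPM to 27.5 CPM and astrocyte nuclei 37.7 CPM to 52.2 CPM. The neuroblast sum was thus below the dividing sum in 3 libraries and above it in C57J 1. In BALB/c, which had the most nuclei, the counting intervals of the neuroblast level (116 CPM to 228 CPM) and the dividing level (524 CPM to 892 CPM) did not overlap, while in the other libraries the dividing sums rested on 5, 7 and 6 UMIs and the intervals overlapped. The division genes that separated both sets belong to the same program, so this is a description.

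Genes of stem cells and intermediate progenitors, led by Egfr, Cdk6, Sox2 and Sox9, summed to 739 CPM, 371 CPM, 361 CPM and 417 CPM in neuroblast nuclei and to 614 CPM to 935 CPM in astrocyte nuclei. Cdk6 was the only one of these 17 genes above other nuclei in all 4 libraries, and Hes1, Thbs4 and Id1 were at 0. Egfr, the receptor of dividing progenitors, had 234 CPM, 0 CPM, 135 CPM and 73.3 CPM, so 1 library held no UMI of it.

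Genes of neuronal maturation were lower in sum than in mature neuron nuclei. Of 20 such genes, 10 were below other nuclei in all 4 libraries and 1, Map2, was above, beside the 26.5% below and 16.7% above among genes with at least 50 CPM in other nuclei. The list summed to 6564 CPM, 7413 CPM, 7667 CPM and 6207 CPM in neuroblast nuclei, against 13284 CPM to 14147 CPM in mature neuron nuclei and 4171 CPM to 5562 CPM in dividing nuclei. The 6 markers that chose the mature neuron nuclei, Syt1 and Snap25 among them, are all in this list, so this is a description. Map2, a dendritic microtubule protein, and the vesicle genes Syt1 and Snap25, with Ank3, led the list. Syt1 had 1208 CPM, 1822 CPM, 1353 CPM and 724 CPM, against 3098 CPM on average in other nuclei. Snap25 had 595 CPM, 865 CPM, 947 CPM and 573 CPM, against 924 CPM, 867 CPM, 899 CPM and 998 CPM in mature neuron nuclei, so it was lower in C57J 1 and BALB/c and close to them in C57J 2 and nude.

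**Figure D4:**
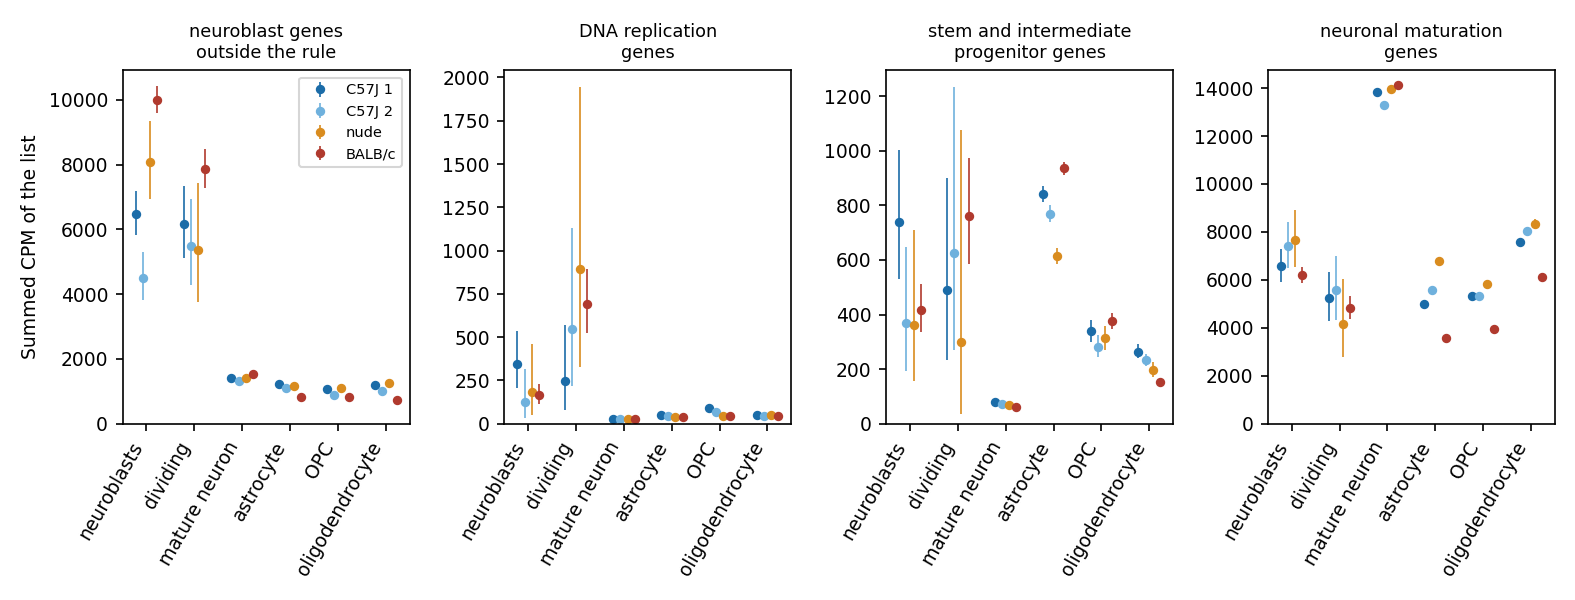
Summed level (CPM) of neuroblast genes outside the rule, DNA replication genes, stem and intermediate progenitor genes and neuronal maturation genes in neuroblast nuclei and in 5 other classes of nuclei, by library, with exact 95% counting intervals as bars. The neuroblast genes are highest in neuroblast and dividing nuclei (4510 CPM to 10004 CPM in neuroblast nuclei), and the maturation genes in mature neuron nuclei.

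Of the 24 migration and guidance genes, 8 were above and 6 below other nuclei in all 4 libraries. Erbb4, a neuregulin receptor of migrating interneuron precursors, Dcc, a netrin receptor, Robo2 and Ncam1 took the most UMIs. Erbb4 had 4238 CPM, 4633 CPM, 2751 CPM and 4297 CPM, against 1525 CPM on average in other nuclei. Robo1, Epha5, Dab1, Ephb1, Nrp1 and Reln were below other nuclei in all 4 libraries. Neuroblast nuclei thus had more Robo2 and less Robo1 RNA relative to other nuclei.

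GABA synthesis genes were above other nuclei and most GABA receptor genes were not. Gad1 and Gad2, which encode the GABA-synthesizing enzymes, and the vesicular transporter gene Slc32a1 were the 3 of 16 GABA signalling genes above in all 4 libraries, while 9 were below. Gad1 had 487 CPM, 463 CPM, 722 CPM and 609 CPM, against 208 CPM on average in other nuclei, and the receptor subunit gene Gabrb1 had 613 CPM, 680 CPM, 541 CPM and 238 CPM, against 1428 CPM. Of 12 genes of olfactory interneuron subtypes, 3 (Synpr, Sst and Calb2) were above in all 4, Npy was seen with 2 UMIs, and Th, Pvalb, Vip, Tpbg and Trh were at 0. Among 19 growth factor and hormone receptor genes, Erbb4, the insulin-like growth factor receptor gene Igf1r and Insr were above and 7, Ntrk2 among them, below. Igf1r had 757 CPM, 618 CPM, 586 CPM and 1021 CPM, against 219 CPM on average. Among 20 cytokine receptor and antigen presentation genes, of which Il1rapl1, Tgfbr1, Ifnar1 and Il6st took the most UMIs, Tgfbr1 and Ifnar1 were above and 6 below, and Il4ra, Il6ra, Il1r1 and Tap1 were at 0. Of 6 markers of striatal projection neurons, 4 were below in all 4 libraries and Drd1 was at 0, and Rarb, Rgs9, Adora2a and Drd2 led that list. Of 6 markers of LS neurons 4 were below, Crhr2 was at 0, and Trpc4, Dgkg, Cpa6 and Met led. Neither set of regional neuron markers was raised in the neuroblast nuclei.

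Between the strain backgrounds, no gene passed the test within neuroblast nuclei when all 4 libraries were used. UMIs were summed per library, and nude and BALB/c were compared with both C57J libraries by the quasi-likelihood test of edgeR. Of 855 genes with enough counts, 0 (0%) reached a Benjamini-Hochberg adjusted p below 0.05 with a log2 fold change beyond 0.5, and 38 had an unadjusted p below 0.05. DESeq2 also called 0, with 12 below 0.05 unadjusted. Without nude, where BALB/c alone was compared and 1680 genes were tested, 9 genes were called. The spread then came from both C57J libraries alone, and BALB/c was assumed to vary like them. With all 4 libraries the smallest adjusted p of edgeR over the 855 genes was 0.233, shared by Prkg1 and Mgat4c. C57J 1 was the only library of batch 1. Without it, the log2 fold change of Mgat4c was -3.12, against -2.60 with all 4 libraries. What was called without C57J 1 is given with the other alternatives at the end. Prkg1, a cGMP-dependent protein kinase, had 577 CPM, 710 CPM, 225 CPM and 128 CPM by library (log2 fold change -2.09, SE 0.47). Its values did not overlap between the backgrounds. The same held for 15.9% of the tested genes with higher and 14.3% with lower levels on the BALB/c background. Prkg1 passed the filter on low counts through the C57J libraries alone, where it was high, so its direction was partly set by that filter. Any gene can pass in this way through a single background.

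Members of the lists were spread in both directions. Of the 9 tested neuroblast genes outside the rule (of 22), 3 (Dlx6os1, Tiam2 and Gad1) were higher on the BALB/c background without overlap and 0 lower, with a median log2 fold change of 0.44, against -0.02 for all genes tested. The rule markers had 4 tested members with a median of 0.02 and 0 without overlap. Their levels were tied by the rule that chose the nuclei on them, so nothing is concluded from these values. The ventral forebrain factors had 7 tested, with 1 higher, 1 (Bcl11b) lower and a median of 0.02, and the migration genes 14 tested, with Slit1, Plxna2 and Pafah1b1 higher, Slit2 lower and a median of -0.13. Of 8 tested maturation genes Grin2b was higher (median 0.02), and of 8 tested GABA signalling genes Gad1 was higher and Gabrb1 lower (median -0.09). The 7 tested receptor genes had a median of 0.19 and 0 without overlap. For lists with 1 or 2 tested members the medians were -0.62 for the septal factors (Zic1, lower), -1.59 for the OPC markers (Tnr, lower), -0.45 for the astrocyte markers, -0.32 for the mature neuron markers, -0.30 for the LS neuron markers, -0.28 for the cytokine receptor genes and 0.83 for the olfactory subtype genes (Synpr). The other lists had 0 tested members, and 0 members of any list were called.

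A test of whether the background effect differed between neuroblast nuclei and all other nuclei, with the library as a block, called 5 of the 855 genes (0.585%) with edgeR, with 38 below 0.05 unadjusted. The 4 of them described here were named after their values were seen. Mgat4c, a glycosyltransferase gene, had 505 CPM, 1143 CPM, 271 CPM and 96.2 CPM in neuroblast nuclei by library, against 681 CPM to 884 CPM in other nuclei. The difference of its log2 fold changes was -2.25 (SE 0.58, adjusted p = 0.0253, edgeR). Its levels in neuroblast nuclei were lower in both libraries on the BALB/c background.

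Slc24a2, a sodium, potassium and calcium exchanger gene of neurons, had 325 CPM, 340 CPM, 0 CPM and 101 CPM, against 324 CPM to 534 CPM in other nuclei (-2.13, SE 0.54, adjusted p = 0.0229, edgeR). It passed the filter on low counts through the C57J libraries alone, where it was high. Its lower level on the BALB/c background was thus partly set by that filter. In the opposite direction, the microtubule-associated protein gene Eml6 had 180 CPM, 340 CPM, 631 CPM and 715 CPM, against 280 CPM to 385 CPM (1.87, SE 0.45, adjusted p = 0.0155, edgeR). Tiam2, with the values given above, differed by 1.37 (SE 0.37, adjusted p = 0.0365, edgeR). For each of these 4 genes the C57J values lay on one side of the nude and BALB/c values. The genes were called on these same values. Of all 855 genes, 15.9% were separated in this way with higher and 14.3% with lower levels on the BALB/c background. None of the 5 calls held without C57J 1, without C57J 2 or without BALB/c, where edgeR called 0, 0 and 1 other gene (Cacna2d3), and 0 genes were called with no filter on low counts or with the marker limit at 0.1%. The differences themselves were kept to different extents when a library was left out, with 1.01 to 1.81 for Tiam2, 1.40 to 2.21 for Eml6 and -2.84 to -1.41 for Mgat4c. That of Slc24a2 was -2.16 without either C57J library and -1.98 without nude, and without BALB/c it rested on nude alone, which held 0 UMIs. At the limit of 0.1% the differences were 1.19 for Tiam2, 0.84 for Eml6, -0.92 for Slc24a2 and -0.18 for Mgat4c.

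The neuroblast nuclei of the libraries also differed in other RNA. The mature neuron markers summed to 2038 CPM, 2965 CPM, 2390 CPM and 1438 CPM in neuroblast nuclei, with Syt1 the most abundant, and the neuroblast genes outside the rule were lowest in C57J 2 and highest in BALB/c. The part of such differences in the 5 calls was not tested. In these summed counts, fewer nuclei of a kind and less RNA per nucleus cannot be told apart.

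**Figure D5:**
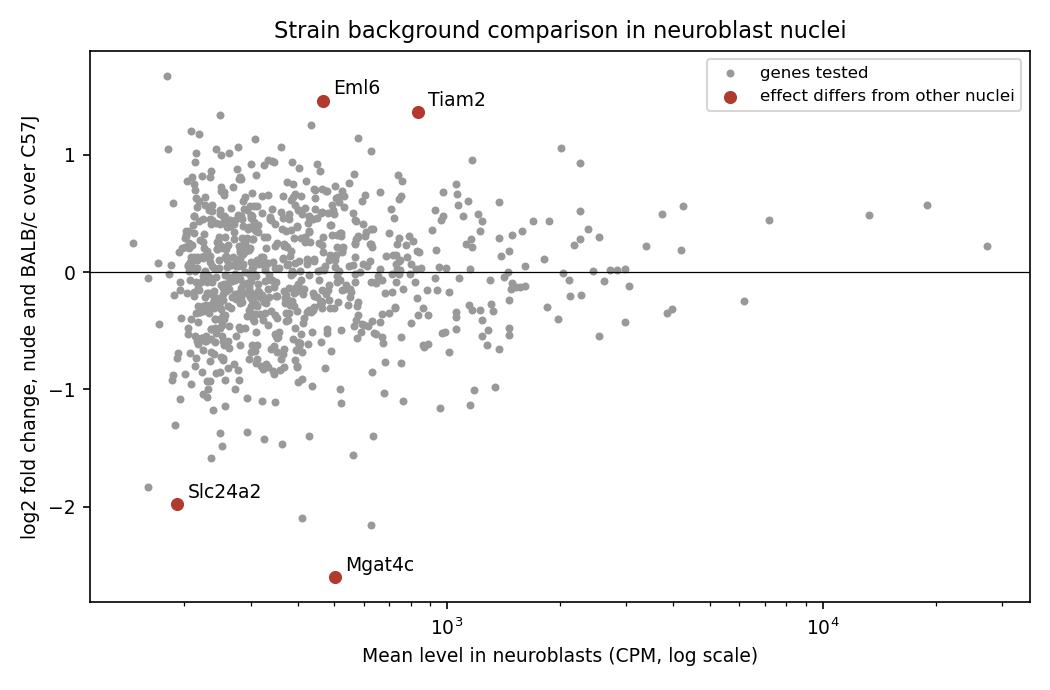
Mean level in neuroblast nuclei (CPM, log scale) and log2 fold change of nude and BALB/c over C57J for genes tested, some of which, 1 of the 5 called genes among them, are left out. None was called in neuroblast nuclei alone, and the 4 genes in red are those whose fold change differed from that in other nuclei, Mgat4c and Slc24a2 lower and Eml6 and Tiam2 higher.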

How the data were processed

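Nuclei of the LS were profiled with 10x Genomics 3' libraries, 4 in all. Raw UMI counts per gene and nucleus were deposited by the authors without normalization, after alignment to mm10 with Cell Ranger 7.0.1 according to the submitters' processing notes and the methods. Whether intronic reads were counted is not given in the sources used here. The gene and barcode lists deposited with the matrices were used as names only.

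The members and the gene lists were chosen with earlier results of these data known. Nuclei with 200 to 6000 genes and less than 2% mitochondrial UMIs were kept, with 12080 to 14836 per library. Predicted doublets (2 simulated per nucleus, 30 components, scikit-learn 1.9.0) were kept and removed only as an alternative. For shares at equal depth each nucleus was thinned to 1000 or 2000 UMIs and shallower nuclei were left out. UMIs of neuroblast nuclei were summed per library and tested with edgeR 4.0.16 (filterByExpr, TMM, quasi-likelihood F test, Benjamini-Hochberg), or with DESeq2 1.42.0, in R 4.3.3. The scripts were tested on simulated data. Calls needed an adjusted p below 0.05 and a log2 fold change beyond 0.5. In the strain comparison up to 10 called genes in each direction were to be named, by fold change and without overlap of the libraries, and in the class description the 20 genes with the highest ratio in their lowest library at 50 CPM or more, with all list members called and the 4 highest of each list, and no more than 2 genes with Gm or Rik names in each direction. Some genes that these rules name are not reported here. The libraries are separate pools of 3 mice, so p-values measure the spread between libraries. On the BALB/c background that spread includes the difference between nude and BALB/c mice, and between the C57J libraries it includes the batch.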

Additional observations from a re-analysis of the deposited data

Results flagged for a closer look

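The shares of neuroblast nuclei in the 2 libraries on a BALB/c background lay on opposite sides of the C57J mean, with a log2 ratio to the C57J mean of -0.82 in nude and 1.83 in BALB/c. The difference was not tested, since each is 1 library. The nude interval overlapped those of both C57J libraries, and against C57J 2 alone, of the same batch, the nude ratio was -0.47, -0.87 at 1000 UMIs per nucleus, -0.06 at 2000 UMIs, -2.06 with at least 4 markers and 0.03 with markers at 0.1%. In the main fit the background effect differed between neuroblast nuclei and other nuclei, by the interaction test of edgeR, for Slc24a2 (-2.13 on the log2 scale), Mgat4c (-2.25), Eml6 (1.87) and Tiam2 (1.37). None of these genes was called with no filter on low counts or with markers at 0.1%. At 0.1% the differences were -0.92, -0.18, 0.84 and 1.19 in the same order. The calls also depended on which libraries were included, as described above. Slc24a2 entered the test through its C57J levels alone.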

How the results depend on the processing

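The log2 ratio of the BALB/c share to C57J, 1.83, ranged from 1.55 to 2.17 when a C57J library was left out. It was 0.93 at 1000 UMIs per nucleus, 2.30 with at least 4 of the markers, 0.26 with markers at 0.4% of UMIs, where 1 nucleus per library was left, and 0.88 with markers at 0.1%. The nude ratio, -0.82, ranged from -1.10 to -0.47 without a C57J library and was -2.02 with at least 4 markers, -0.022 at 0.4%, -0.053 at 0.1% and -0.26 at 2000 UMIs. Nude and BALB/c together gave a log2 ratio to C57J of 1.04, and from -0.82 to 1.83 when a library was left out, the direction reversing without BALB/c (-0.82). The limits of 0.1%, the thinning to 2000 UMIs and the count by further genes were chosen after seeing the data. In the strain comparison 1 gene was called with no filter on low counts, and 0 to 9 genes without a library (2, Mgat4c and Asic2, without C57J 1, and 9 without nude). The differences between neuroblast and other nuclei gave 0 genes with no filter, 0 at 0.1% and 0 to 7 without a library, where the 7 without nude included all 5. With mature neuron nuclei as the comparison 4 of the 5 were called, all but Slc24a2. Adjusted p-values of the 4 genes named over the alternatives reached 1.00. The strains could not be paired by replicate, because nude and BALB/c have 1 library each and carry no replicate numbers. Neuroblast and other nuclei were compared within libraries, with the library as a block. The causes were not tested. Depth limits the comparison to 855 genes.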
